A study of Homo sapiens with 6 samples.

Results

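The genes described here serve protein folding in the endoplasmic reticulum (ER) and the disposal of proteins that fail to fold. The set was written out by symbol and holds 38 genes for ER stress sensors, chaperones, disulfide enzymes, translocon subunits and ER-associated degradation (ERAD), of the 23180 gene symbols with counts. By symbol 37 were found, and ERO1LB was found under its current symbol ERO1B. In 37 of the 38 the counts were high enough to be tested, and DERL3 was not tested. Secretory and membrane proteins enter the ER through the Sec61 channel and are bound by chaperones, glycan-reading lectins and disulfide isomerases until they are folded. When unfolded proteins accumulate, the sensors IRE1α (encoded by ERN1), PERK (EIF2AK3) and ATF6 start the unfolded protein response, which slows translation and raises the transcription of chaperone and ERAD genes. ERAD moves misfolded proteins back to the cytosol, where they are ubiquitinated and degraded.

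RNA-Seq was analysed for A549 cells, an established human lung adenocarcinoma line given as WT genotype and passage 11 in all samples. Cells were transfected with siControl (3 biological replicates) or with siKMT9α#1, an siRNA against the KMT9α subunit of the histone methyltransferase KMT9 (3 biological replicates), at 65 nM in DharmaFECT 1. They were harvested 3 days later, so that a single line, a single siRNA and a single time point were compared. The question put to these genes was which of them differed in mRNA level after KMT9α knock-down. Counts over 1 transcript per gene totalled 13740097 to 19832395.5 per sample. N6AMT1, which encodes KMT9α, had 10.2 to 11.5 CPM (these are counts scaled to library size and TMM factors) in siControl and 2.87 to 3.35 CPM in siKMT9α#1. The 5 epithelial markers were detected in every sample and summed to 3214 to 3576 CPM in siControl and 1725 to 1816 CPM in siKMT9α#1. The keratins KRT8, KRT18 and KRT19 were lower after knock-down (log2 fold changes -1.28, -0.75 and -0.68), as was EPCAM (-2.76), and CDH1 was higher (1.34). The leukocyte marker PTPRC, the endothelial marker PECAM1 and the fibroblast marker COL3A1 had at most 4 counts in a sample, while COL1A1 had 2.76 to 4.52 CPM, and the 4 summed to 4.08 to 4.60 CPM in siControl and 2.92 to 3.24 in siKMT9α#1. CDKN2A, which A549 cells have lost, had 0 counts in every sample. The part of these markers in the results was not tested. In bulk RNA, a change in the number of cells of a kind and a change in RNA per cell cannot be told apart.

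The members did not move in 1 direction. Of the 37 tested, 6 were higher and 10 were lower after knock-down past the study's threshold (P below 1e-08 and a log2 fold change beyond 0.26 in either direction). Over all 13877 genes tested, 13.5% were higher and 10.7% were lower by that rule. With library sizes alone in place of TMM factors, 3 members were higher and 11 lower, and 1516 of the 3378 genes past the threshold were higher, against 1878 of 3357. The 6 were SEC61A1, EDEM3, DNAJC3, ERN1, EDEM2 and PDIA4, and the 10 were EIF2AK3, CANX, WFS1, DNAJB9, HERPUD1, XBP1, ERO1LB, PPP1R15B, SYVN1 and PDIA6. At an adjusted p under 0.05 (edgeR's quasi-likelihood test, Benjamini-Hochberg adjustment over all genes tested), 12 were higher, 19 were lower and 6 were neither, where 37.1% of all genes were higher and 38.5% were lower. The 3 values of each group did not overlap in 32 of 37 members, against 77% of all genes. An exact permutation test of 3 against 3 samples cannot give a p below 0.1. The median log2 fold change of the members was -0.14 and that of all genes -0.014, and the median of the absolute values was 0.50 against 0.47. The p-values rest on the spread between these replicates of a single line. In the fit, the variance of each gene is also drawn toward that of the other genes, so a p-value does not rest on that gene's replicates alone.

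**Figure D1:**
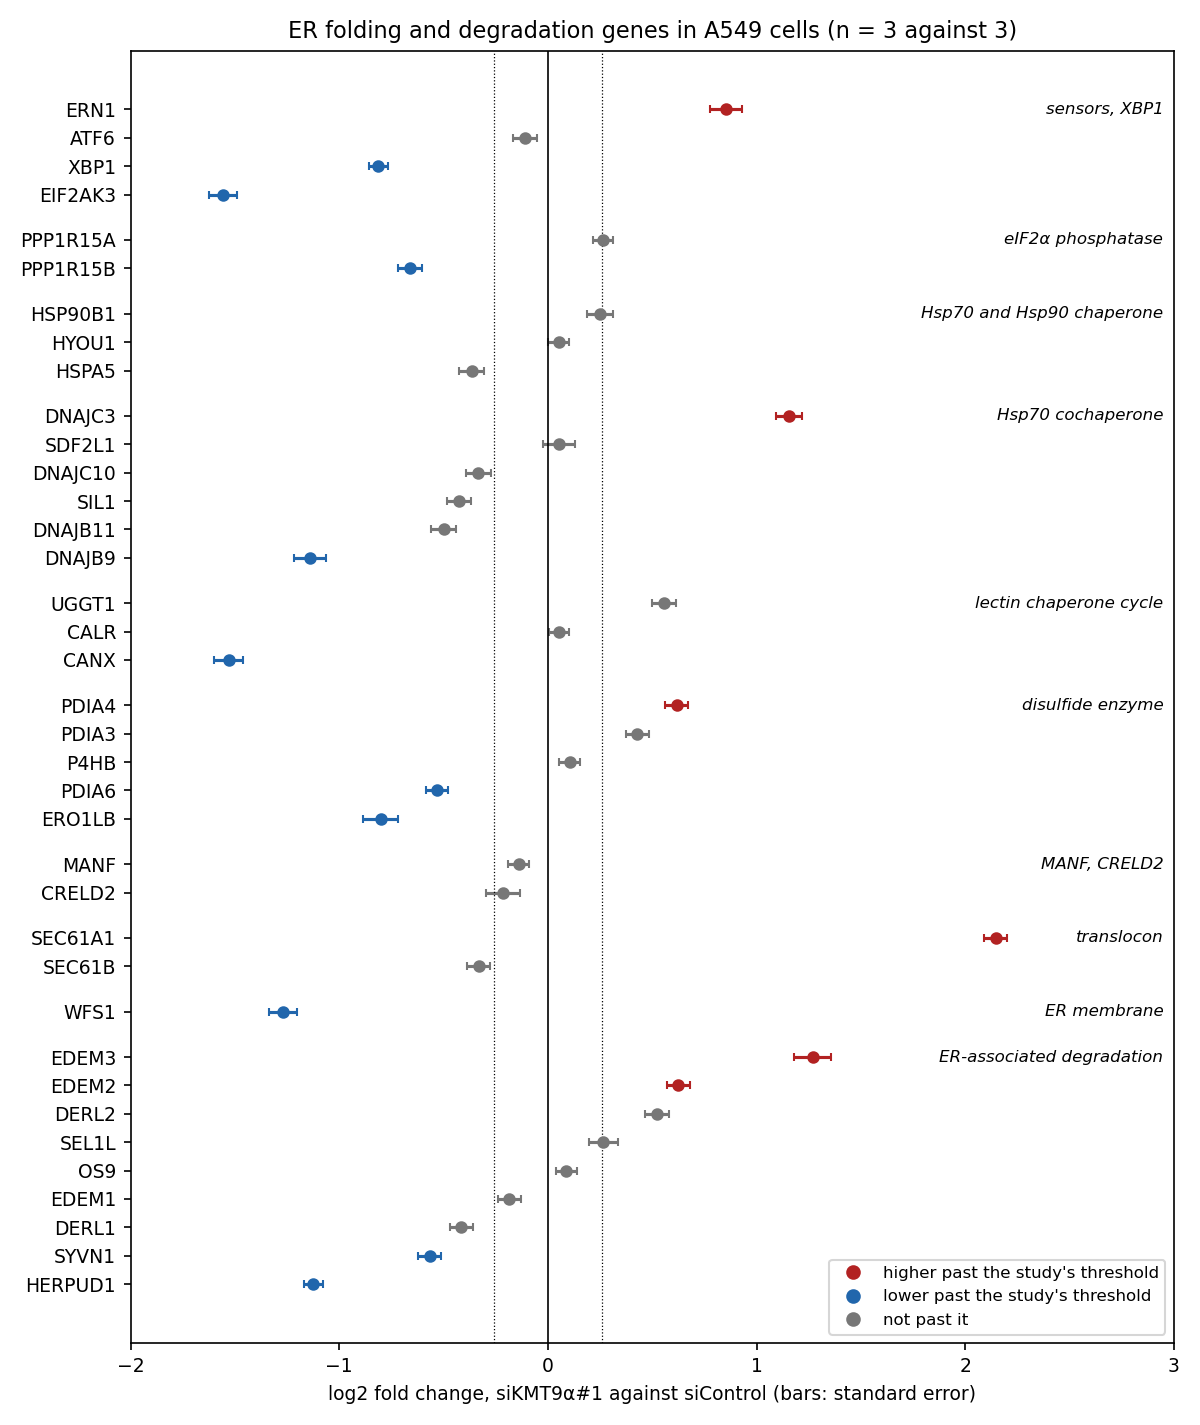
Log2 fold change of siKMT9α#1 against siControl for the 37 genes tested, grouped by role, with points for estimates and bars for standard errors. Dotted lines mark 0.26 in either direction. Within nearly every role, genes with positive and negative estimates stand side by side, from SEC61A1 at 2.15 to EIF2AK3 at -1.56.

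The count of members past the study's threshold depended on single libraries, as did that of all genes, while the direction of these 16 did not. Without siKMT9α#1 replicate 2, 3 members were higher and 6 were lower past the threshold, and 2326 of 14168 genes passed it. Without siKMT9α#1 replicate 1, 7 members were higher and 6 were lower, and 2924 of 14171 genes passed. With all samples, 3357 of 13877 genes passed. The 9 that passed in every alternative over the whole table were SEC61A1, EDEM3, DNAJC3, EIF2AK3, CANX, WFS1, DNAJB9, HERPUD1 and XBP1. EDEM2, ERN1, PDIA4, ERO1LB, PPP1R15B, SYVN1 and PDIA6 dropped below the threshold in at least 1 of them and kept their direction and an adjusted p under 0.05 in all.

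Promoters of ER chaperone genes are known for the ER stress response element (ERSE), CCAAT and CCACG held 9 bases apart, to which NF-Y and ATF6 bind, and for ERSE-II, ATTGG and CCACG held 1 base apart. Both were searched on both strands from 250 bases before to 50 bases after the start of each gene in RefSeq (GRCh38.p14), where 35 of the 38 members had an entry. The first start listed for a symbol was used. It was not matched to the start of the transcript counted, so a gene with several starts may have been searched elsewhere. Only exact matches were counted, so copies with a changed letter or spacing were missed. ERSE was found in 7 of the 35 (20.0%) and in 22 of all 27305 promoters (0.0806%). ERSE-II was found in 3 of the 35 (8.57%) and in 15 of all promoters (0.0549%). The core ACGTG, the letters that XBP1 and ATF6 sites share, was found in 13 of the 35 (37.1%) and in 21.6% of all, and in HERPUD1 and HYOU1 it overlapped ERSE-II. A match is a description of the letters and not evidence of binding. The 250 bases before the start are shown for 4 genes on which the results turn, HSPA5 as the classical target and CANX, XBP1 and HERPUD1 as members that fell, with the element's fixed letters in capitals. HSPA5 was read from chr9:125241344-125241593, minus strand, CANX from chr5:179698679-179698928, plus strand, XBP1 from chr22:28800570-28800819, minus strand, and HERPUD1, which holds ERSE-II, from chr16:56931892-56932141, plus strand.
HSPA5: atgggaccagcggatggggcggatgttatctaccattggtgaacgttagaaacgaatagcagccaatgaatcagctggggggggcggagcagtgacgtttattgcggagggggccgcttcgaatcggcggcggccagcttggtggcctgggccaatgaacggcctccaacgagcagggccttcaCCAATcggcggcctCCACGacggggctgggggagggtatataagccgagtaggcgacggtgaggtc
CANX: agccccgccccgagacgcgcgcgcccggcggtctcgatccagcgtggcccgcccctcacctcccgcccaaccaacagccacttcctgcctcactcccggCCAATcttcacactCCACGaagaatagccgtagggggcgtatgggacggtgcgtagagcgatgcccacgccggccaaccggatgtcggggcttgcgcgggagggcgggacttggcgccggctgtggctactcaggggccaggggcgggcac
XBP1: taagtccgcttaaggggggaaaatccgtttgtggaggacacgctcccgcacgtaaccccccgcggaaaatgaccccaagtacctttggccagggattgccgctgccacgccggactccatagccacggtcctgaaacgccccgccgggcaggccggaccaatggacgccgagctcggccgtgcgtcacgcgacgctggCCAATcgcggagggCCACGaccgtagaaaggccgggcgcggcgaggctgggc
HERPUD1: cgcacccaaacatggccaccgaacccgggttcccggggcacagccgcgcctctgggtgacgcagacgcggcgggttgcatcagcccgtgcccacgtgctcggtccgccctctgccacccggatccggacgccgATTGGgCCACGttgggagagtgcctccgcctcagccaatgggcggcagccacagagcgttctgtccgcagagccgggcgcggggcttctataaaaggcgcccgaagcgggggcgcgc

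The remaining elements are shown alone, read on the strand that holds the letters, because their spacer bases differ while the flanks do not. They lie at chr19:12938384-12938402 in CALR, chr22:49918554-49918572 in CRELD2 and chr1:236282183-236282201 in ERO1LB (GRCh38.p14). HSP90B1 holds a pair of ERSE copies, at chr12:103930216-103930234 and chr12:103930321-103930339. HYOU1 holds a pair of ERSE-II copies with the same letters, at chr11:119057380-119057390 and chr11:119057274-119057284, and SDF2L1 a single one at chr22:21642114-21642124.
CALR: CCAATgatggtcgaCCACG
CRELD2: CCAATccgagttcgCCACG
ERO1LB: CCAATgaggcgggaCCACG
HSP90B1, distal: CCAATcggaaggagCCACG
HSP90B1, proximal: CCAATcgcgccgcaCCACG
HYOU1: ATTGGaCCACG
SDF2L1: ATTGGtCCACG

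In siControl cells the most abundant members per transcript length were luminal chaperones. HSPA5 (BiP, the ER Hsp70) had 908 ± 63.1 CPM per kilobase (SD, n = 3) and HSP90B1 (GRP94, the ER Hsp90) 855 ± 75.0, a difference smaller than either SD. PPP1R15A, the inducible phosphatase subunit GADD34, came next with 629.5 ± 6.14, then P4HB, a protein disulfide isomerase, with 600.0 ± 11.4 and SEC61B with 573 ± 25.5 CPM per kilobase. The lectins CALR and CANX had 438 ± 16.3 and 327 ± 31.9. The sensors were far lower, at 22.3 ± 1.89 for EIF2AK3, 13.6 ± 0.546 for ATF6 and 3.78 ± 0.0994 for ERN1. After knock-down the order at the top changed, as HSP90B1 reached 1018 ± 62.2 and PPP1R15A 756 ± 9.21 CPM per kilobase, while HSPA5 had 704 ± 40.5. SEC61A1 went from 58.8 ± 3.00 to 260.1 ± 11.5 CPM per kilobase and CANX from 327 ± 31.9 to 113 ± 9.65. DERL3, a member of the derlin family of ERAD channels, had 2.5 to 5.5 counts in each of the 6 samples. The coefficient of variation of a tested member's CPM between replicates was 0.574% to 12.7% in siControl (median 5.38%) and 1.22% to 14.9% in siKMT9α#1 (median 5.13%).

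**Figure D2:**
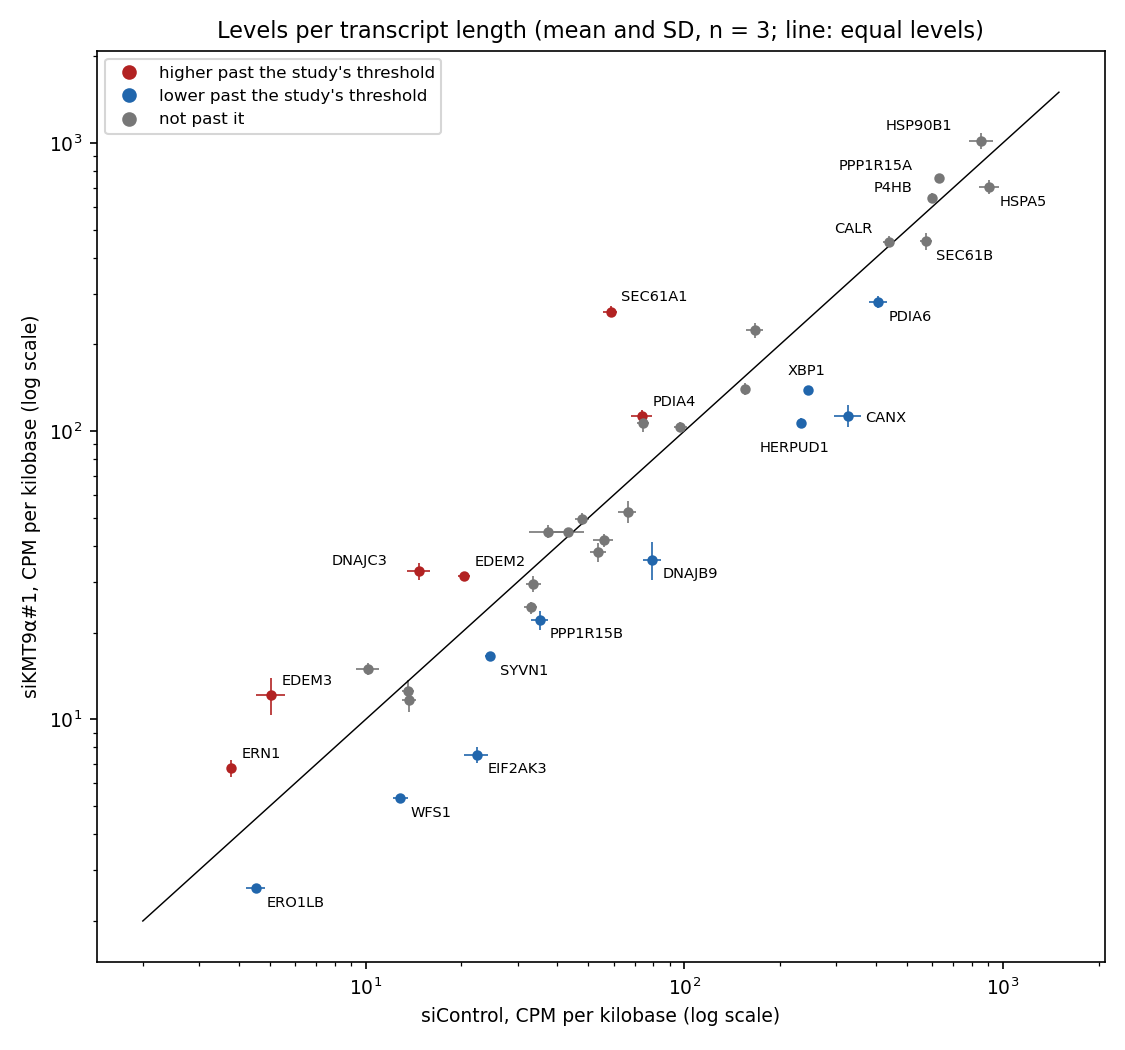
Mean CPM per kilobase of transcript in siKMT9α#1 against siControl for the 37 genes tested, both axes on a log scale, with bars for the SD (n = 3) and a line for equal levels. SEC61A1 lies farthest above the line, at 260.1 against 58.8, and CANX, HERPUD1, EIF2AK3 and WFS1 lie well below it.

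The 3 stress sensors differed from each other. ERN1 (hg19, chr17:62120390-62207502), whose product IRE1α splices XBP1 mRNA, had 14.8, 15.4 and 14.7 CPM in siControl replicates 1 to 3 and 25.1, 27.0 and 28.6 CPM in siKMT9α#1. All samples with knock-down were above all controls, and the log2 fold change was 0.85 ± 0.076 (SE, adjusted p = 5.64e-09). EIF2AK3 (chr2:88856259-88927094), the kinase PERK that phosphorylates eIF2α and slows translation, had 113, 96.5 and 99.7 CPM in siControl and 32.3, 35.8 and 36.5 in siKMT9α#1. The groups were far apart, and EIF2AK3 fell by 66.1%, a decrease of about the size of that of CANX (log2 fold change -1.56 ± 0.067 SE, adjusted p = 8.38e-14). ATF6, the membrane-bound transcription factor cleaved in the Golgi, had 99.8 to 107 CPM in siControl and 89.1 to 104 in siKMT9α#1. The ranges overlapped, and its log2 fold change of -0.11 missed the threshold (adjusted p = 0.0999). Correction for GC content and transcript length gave ATF6 -0.40 (adjusted p = 1.07e-08), and leaving out siKMT9α#1 replicate 3 gave -0.19 (adjusted p = 0.00292). With library size alone ATF6 was at -0.22 (adjusted p = 0.00286). The ratio of ERN1 to EIF2AK3 counts per base was 0.170 ± 0.0166 in siControl and 0.898 ± 0.0166 in siKMT9α#1 (SD, n = 3).

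XBP1 (chr22:29190548-29196560), the transcription factor downstream of IRE1α, had 446, 444 and 441 CPM in siControl and 245, 254 and 258 in siKMT9α#1. Controls varied by less than the distance between the groups, and the log2 fold change was -0.81 ± 0.046 (SE, adjusted p = 4.82e-12). Its listed transcripts shared nearly all counts (the other held 98.6% of the counts of the one used), so spliced and unspliced XBP1 mRNA were not told apart. The eIF2α phosphatase subunits, which restore translation, went opposite ways. PPP1R15A, the stress-induced one, rose from 1488, 1514 and 1489 CPM to 1818, 1804 and 1775 CPM. Its replicates were tight, and the log2 fold change was 0.27 ± 0.046 (SE, adjusted p = 3.98e-05), short of the study's P. PPP1R15B, the constitutive subunit, had 196, 174 and 186 CPM in siControl and 110.0, 114 and 127 in siKMT9α#1, without overlap (log2 fold change -0.66 ± 0.059 SE, adjusted p = 4.76e-09).

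**Figure D3:**
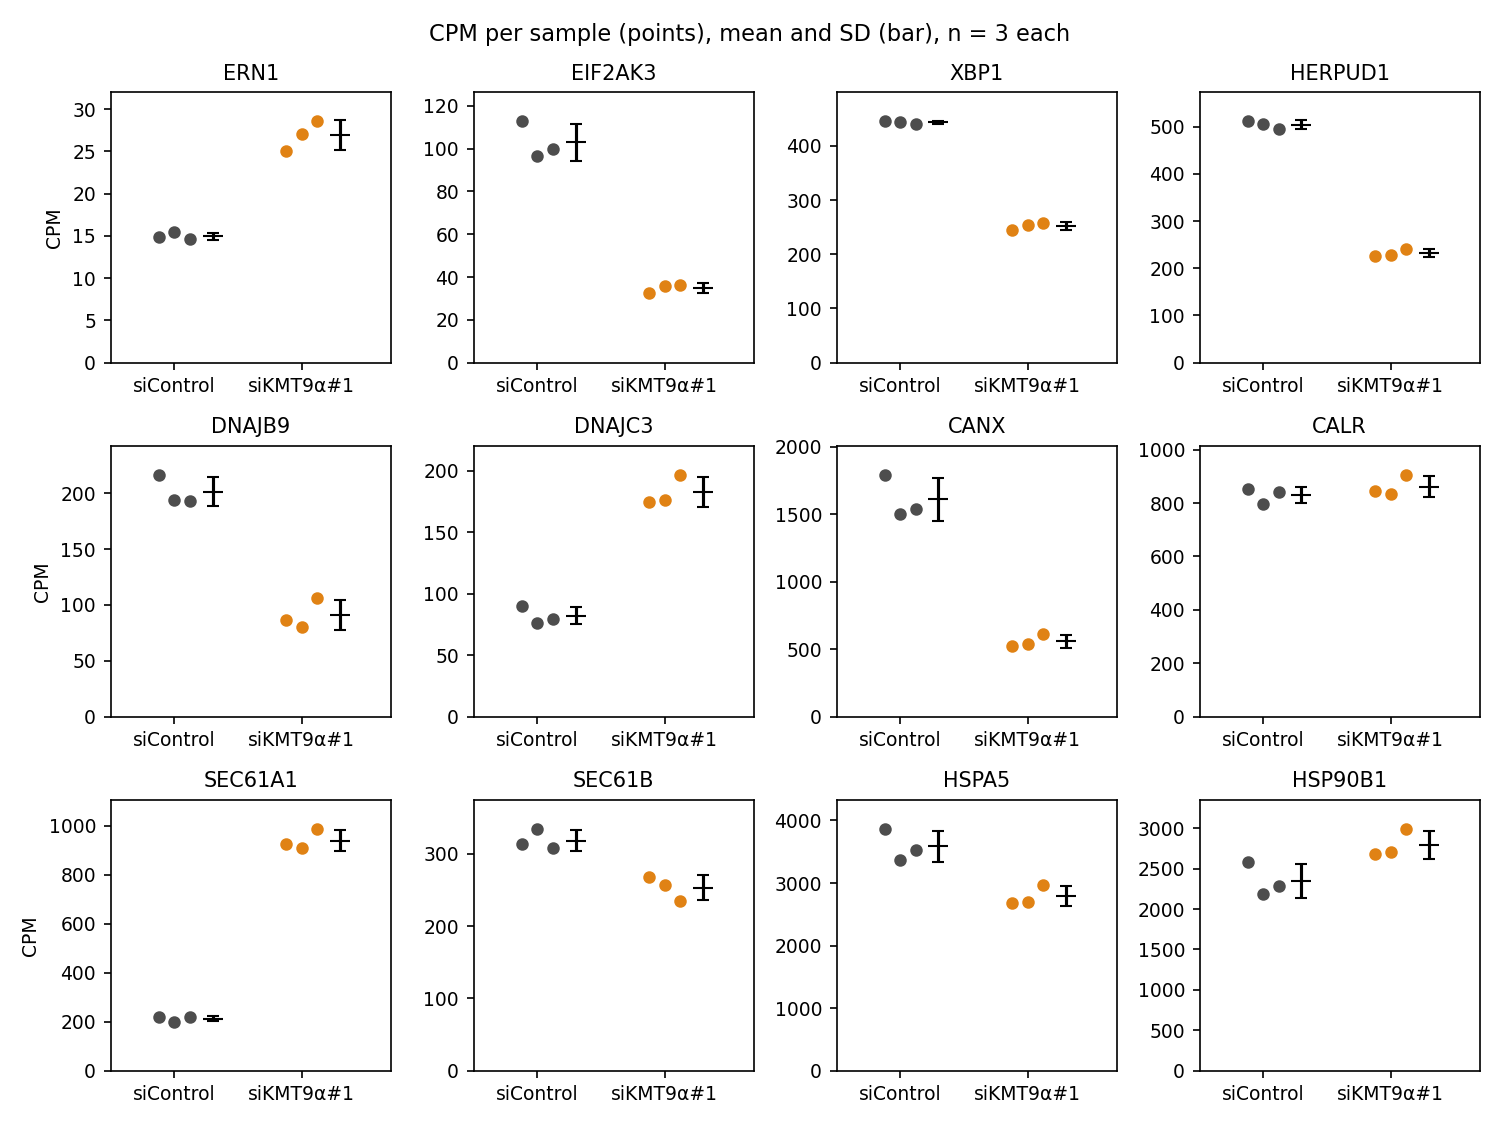
CPM of 12 members in each sample (points), with the group mean and SD (bars, n = 3), each panel on its own linear axis from 0. ERN1, DNAJC3 and SEC61A1 are higher in every siKMT9α#1 sample, EIF2AK3, XBP1, HERPUD1, DNAJB9 and CANX are lower in every one, and CALR overlaps.

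Of the large luminal chaperones, HSPA5 was lower, HSP90B1 was higher and HYOU1 passed neither way. HSPA5 had 3864, 3375 and 3529.9 CPM in siControl and 2688, 2697 and 2970.1 CPM in siKMT9α#1. Each knock-down sample was below each control, and HSPA5 fell by 22.4% (log2 fold change -0.37 ± 0.059 SE, adjusted p = 1.47e-05). HSP90B1, which folds a narrower set of clients such as integrins and Toll-like receptors, had 2578, 2182 and 2283 CPM in siControl and 2682, 2709 and 2989.9 in siKMT9α#1. Its lowest knock-down value was just above its highest control value, and the log2 fold change was 0.25 ± 0.062 (SE, adjusted p = 0.00127). HYOU1, the large Hsp70-like nucleotide exchange factor of BiP, had 206 to 229 CPM in siControl and 217 to 237 in siKMT9α#1, which overlap (log2 fold change 0.052, adjusted p = 0.371). HSP90B1 per HSPA5, as counts per base, was 0.942 ± 0.0172 in siControl and 1.44 ± 0.00671 in siKMT9α#1.

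The cochaperones of BiP split. DNAJC3 (P58IPK), a J-domain protein that delivers clients to BiP, had 89.6, 76.4 and 79.7 CPM in siControl and 174, 176 and 196 in siKMT9α#1. It rose 2.23-fold, with all 3 knock-down samples above all controls (log2 fold change 1.16 ± 0.061 SE, adjusted p = 2.26e-12). DNAJB9 (ERdj4), a J-domain protein that also restrains IRE1α, had 216, 194 and 193 CPM in siControl and 86.3, 80.2 and 106 in siKMT9α#1. The groups stayed apart although siKMT9α#1 replicate 3 was higher than the other two, and DNAJB9 fell by 54.6% (log2 fold change -1.14 ± 0.076 SE, adjusted p = 6.86e-11). Of the rest, DNAJB11 (ERdj3), SIL1, a nucleotide exchange factor, and DNAJC10 (ERdj5), a reductase that aids ERAD, were lower at the adjusted p, with log2 fold changes of -0.50, -0.43 and -0.33. SDF2L1, a partner of DNAJB11, had 32.4 to 40.9 CPM in siControl and 37.9 to 39.5 in siKMT9α#1 (log2 fold change 0.053, adjusted p = 0.528). With GC and length correction its estimate was 0.37 (adjusted p = 1.94e-06), and without siControl replicate 1 it turned to -0.025.

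Calnexin and calreticulin, the lectins that hold monoglucosylated glycoproteins for folding, parted. CANX (chr5:179125930-179158639), the membrane-bound lectin, had 1790.3, 1502 and 1538 CPM in siControl and 525, 535 and 612 in siKMT9α#1. Every knock-down sample was below the lowest control by more than the range of either group, and CANX fell by 65.4% (log2 fold change -1.53 ± 0.068 SE, adjusted p = 1.68e-13). CALR, its soluble counterpart, had 853, 795 and 842 CPM in siControl and 844, 835 and 905 CPM in siKMT9α#1, which overlap (log2 fold change 0.053, adjusted p = 0.339). CANX per CALR, as counts per base, was 0.746 ± 0.0548 in siControl and 0.249 ± 0.0106 in siKMT9α#1 (SD, n = 3). UGGT1, which reglucosylates unfolded glycoproteins so that the lectins bind them again, had 103 to 119 CPM in siControl and 154 to 168 in siKMT9α#1 (log2 fold change 0.56 ± 0.058 SE, adjusted p = 4.90e-08). With GC and length correction CALR was called higher, at 0.21 (adjusted p = 2.54e-04), and UGGT1 was 0.15.

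Disulfide enzymes also went both ways. PDIA4 (ERp72), an isomerase with an extra active site, had 227, 198 and 223 CPM in siControl and 318, 325 and 351 in siKMT9α#1. It was higher in every knock-down sample, 1.53-fold on average (log2 fold change 0.62 ± 0.056 SE, adjusted p = 7.67e-09). PDIA6 (P5), an isomerase that works with BiP, had 1001, 885 and 914 CPM in siControl and 633, 624 and 681 CPM in siKMT9α#1. It was lower in every sample (log2 fold change -0.53 ± 0.054 SE, adjusted p = 3.85e-08). Its span overlaps that of ATP6V1C2 at chr2:10923517-10925236 (hg19). The whole ATP6V1C2 transcript held 39.9% as many counts, and the use of strand in counting is not stated. ERO1LB, an oxidase that recharges the isomerases, had 24.3, 21.1 and 22.9 CPM in siControl and 12.9, 12.7 and 13.5 in siKMT9α#1. The groups did not overlap, and it fell by 42.7% (log2 fold change -0.80 ± 0.082 SE, adjusted p = 3.91e-08). PDIA3 (ERp57), the isomerase that docks on calnexin and calreticulin, was higher at the adjusted p (log2 fold change 0.43 ± 0.055 SE, adjusted p = 9.43e-07). P4HB was 1500.5 to 1552 CPM in siControl and 1597 to 1717 in siKMT9α#1, which do not overlap, yet its log2 fold change of 0.10 missed the threshold (adjusted p = 0.0601). P4HB was called higher in 6 alternatives, with GC and length correction at 0.21 (adjusted p = 8.66e-05), and with RLE factors, no filter, DESeq2, summed transcripts or without siControl replicate 1 at 0.11 to 0.13 (adjusted p of 0.0188 to 0.0404), and with library size alone it was -0.0017.

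MANF and CRELD2, small proteins secreted under ER stress, were slightly lower. MANF was at 142 to 148 CPM in siControl and 127 to 138 in siKMT9α#1 (log2 fold change -0.14, adjusted p = 0.0154). CRELD2 was at 20.0 to 22.1 CPM in siControl and 16.5 to 19.7 in siKMT9α#1 (log2 fold change -0.22, adjusted p = 0.0225). Both calls were lost when single libraries were left out. MANF had an adjusted p of 0.0994 without siControl replicate 1, 0.0748 without siKMT9α#1 replicate 1 and 0.0840 without its replicate 2, and CRELD2 had 0.0626 without siControl replicate 2, 0.123 without siKMT9α#1 replicate 1 and 0.0550 without its replicate 2, and was also lost without siControl replicate 3. With GC and length correction MANF turned to 0.050 and CRELD2 was -0.012. CRELD2 also lost its call with DESeq2 on all samples (-0.21, adjusted p = 0.0980).

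The largest increase of all members was that of SEC61A1, while the other subunits of the channel through which proteins enter the ER were lower. SEC61A1 (chr3:127771212-127790526), the pore-forming α subunit of the Sec61 translocon, had 219, 199.8 and 218 CPM in siControl and 924, 908 and 987 CPM in siKMT9α#1. The 3 knock-down values were all above the highest control value, and SEC61A1 rose 4.43-fold (log2 fold change 2.15 ± 0.054 SE, adjusted p = 5.12e-17). SEC61B, the tail-anchored β subunit of the same complex, had 313, 334 and 307 CPM in siControl and 268, 257 and 234 in siKMT9α#1. It went the other way in every sample (log2 fold change -0.33 ± 0.054 SE, adjusted p = 1.80e-05). Outside the set, SEC61G and SEC61A2, which encode the γ subunit and a second α subunit, had log2 fold changes of -0.45 (adjusted p = 2.88e-07) and -0.26 (adjusted p = 0.00745). SEC61A1 per SEC61B, as counts per base, was 0.108, 0.0919 and 0.109 in siControl and 0.530, 0.543 and 0.648 in siKMT9α#1. WFS1 (wolframin), an ER membrane protein involved in calcium balance, had 47.7, 43.7 and 48.3 CPM in siControl and 18.7, 19.1 and 20.1 in siKMT9α#1. It fell by 58.5%, with no overlap (log2 fold change -1.27 ± 0.068 SE, adjusted p = 2.37e-12).

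Among the ERAD genes, the mannosidases EDEM2 and EDEM3 rose while HERPUD1 and SYVN1 of the HRD1 complex fell. EDEM3, which trims mannose from misfolded glycoproteins, had 37.3, 31.3 and 31.3 CPM in siControl and 74.3, 72.4 and 93.3 in siKMT9α#1. Each knock-down value was above each control, with siKMT9α#1 replicate 3 the highest (log2 fold change 1.27 ± 0.087 SE, adjusted p = 1.13e-10). EDEM2, which acts on the first mannose, had 44.8, 43.1 and 41.2 CPM in siControl and 63.9, 66.4 and 68.6 in siKMT9α#1, again without overlap (log2 fold change 0.63 ± 0.056 SE, adjusted p = 5.64e-09). Its counted transcript is listed as noncoding. The other transcripts of EDEM2 held 99.1% and 94.6% of the counts of the one used, so they are no separate measure of it. EDEM1 was slightly lower (log2 fold change -0.19 ± 0.055 SE, adjusted p = 0.00519), and without siKMT9α#1 replicate 2 its adjusted p was 0.0518. With GC and length correction EDEM1 was at -0.46 (adjusted p = 1.38e-10), past the study's threshold. HERPUD1 (chr16:56965748-56977793), the stress-induced membrane protein that organises the HRD1 complex, had 512, 506 and 495 CPM in siControl and 225, 228 and 241 in siKMT9α#1. The replicates of each group lay close together, and HERPUD1 fell by 54.1% (log2 fold change -1.12 ± 0.047 SE, adjusted p = 6.79e-14). SYVN1, the ubiquitin ligase HRD1 itself, had 76.4, 74.5 and 71.6 CPM in siControl and 48.9, 48.8 and 52.2 in siKMT9α#1. It was lower in all 3 (log2 fold change -0.57 ± 0.054 SE, adjusted p = 1.47e-08). Its span overlaps that of MRPL49 only at its end, chr11:64894751-64894841 (hg19). The whole MRPL49 transcript held 217% as many counts, and how many fell in the shared stretch is not known.

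SEL1L, the adaptor that stabilises HRD1, had 265 to 336 CPM in siControl and 341 to 375 in siKMT9α#1 (log2 fold change 0.27 ± 0.068 SE, adjusted p = 0.00170), and with GC and length correction its estimate was 0.00067. The derlins, membrane proteins of the exit channel, went apart, with DERL1 at -0.41 and DERL2 at 0.52 on the log2 scale (adjusted p = 1.85e-06 and 8.06e-08). DERL1 per DERL2, as counts per base, was 0.750 ± 0.0224 in siControl and 0.393 ± 0.0180 in siKMT9α#1. OS9, a lectin that hands trimmed glycoproteins to HRD1, overlapped between groups (log2 fold change 0.089, adjusted p = 0.113), and without siControl replicate 1 its adjusted p was 0.0168. With GC and length correction OS9 was called higher, at 0.14 (adjusted p = 0.00873).

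Grouped by the branch of the unfolded protein response to which each gene was assigned here, neither the ATF6 genes nor the IRE1-XBP1 genes lay all on 1 side. XBP1 was counted in the ATF6 branch, PPP1R15A was the only PERK gene, and the 3 sensors stood apart. The other 15 genes tested were not assigned, among them EDEM2, EDEM3, DERL1, DERL2 and SYVN1. Of these 15, 2 were higher and 5 lower past the study's threshold, with a median log2 fold change of -0.33. Of 11 ATF6-branch genes tested, 1 was higher and 2 were lower past the study's threshold, 3 were higher and 5 lower at the adjusted p, and their median log2 fold change was 0.052. Of 7 IRE1-XBP1 genes, 2 were higher (SEC61A1 and DNAJC3) and 2 lower (DNAJB9 and PDIA6) past the threshold, 2 and 5 at the adjusted p, and the median was -0.33. The 9 ERAD genes tested had 2 higher and 2 lower past the threshold, and the 5 disulfide enzymes 1 and 2. Over all genes the shares were 13.5% higher and 10.7% lower past the threshold, and 37.1% and 38.5% at the adjusted p.

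Ratios between genes that work as partners or are close relatives do not depend on the scaling between samples, and they were computed within each sample for 10 pairs chosen after the values were seen. They are given with no test, since the pairs were picked for their difference, and in all 10 the ratios of the 3 controls and the 3 knock-down samples did not overlap. Apart from those given above, DNAJC3 per DNAJB9 was 0.185 ± 0.00522 in siControl and 0.920 ± 0.0794 in siKMT9α#1 (SD, n = 3, counts per base). EDEM3 per EDEM1 was 0.150 ± 0.00889 and 0.409 ± 0.0320. PDIA4 per PDIA6 was 0.182 ± 0.00890 and 0.403 ± 0.00706. In each of these the distance between the group means was larger than both SDs. SEL1L per SYVN1, the adaptor per its ligase, was 1.52 ± 0.161 and 2.71 ± 0.0411. The phosphatase subunits PPP1R15A per PPP1R15B were at 18.0 ± 1.27 and 34.2 ± 2.93.

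**Figure D4:**
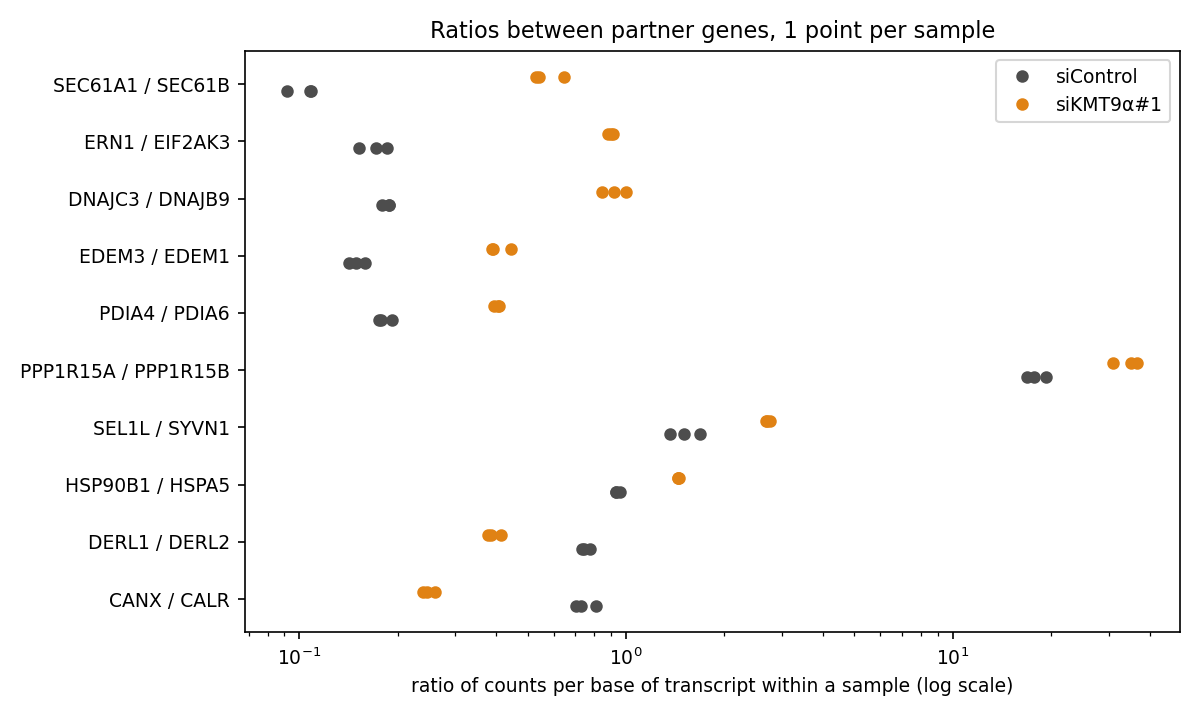
Ratio of counts per base between 10 pairs of members, 1 point per sample, on a log axis. The 3 siKMT9α#1 points stand apart from the 3 siControl points in every pair, to the right for 8 pairs and to the left for DERL1 per DERL2 and CANX per CALR.

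Of the 10 genes with an ERSE or ERSE-II, 1 was higher and 6 were lower at the adjusted p, where 37.1% and 38.5% of all genes were. By the study's threshold 0 were higher and 4 were lower, against 13.5% and 10.7% of all genes (CANX, HERPUD1, XBP1 and ERO1LB), and their median log2 fold change was -0.29, from -1.53 for CANX to 0.25 for HSP90B1. Of the 25 members with neither, 6 were higher and 6 were lower, with a median of -0.11. HSP90B1 with its pair of exact ERSE matches and HSPA5 with a single exact match had log2 fold changes of 0.25 and -0.37. HYOU1 with a pair of exact ERSE-II matches was at 0.052 and HERPUD1 with a single exact match at -1.12. SEC61A1, EIF2AK3, WFS1 and EDEM3 hold neither element in this window, which need not be at the start of the transcript counted.

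An siRNA can also lower mRNAs whose 3′ UTR pairs with bases 2 to 8 of its guide strand, which for siKMT9α#1 are complementary to ACATTCA. This 7-mer occurs in the annotated 3′ UTR (GENCODE, GRCh37) of 8 of the 37 members tested (21.6%) and of 14.1% of the tested genes for which such a 3′ UTR was found. In the members with it the median log2 fold change was -0.60, with 1 higher and 5 lower past the study's threshold, and the 29 without it had a median of 0.052, with 5 higher and 5 lower. Past that threshold, 13.5% of all genes tested were higher and 10.7% were lower. Over the tested genes with a 3′ UTR the medians were -0.16 for the 1718 with the 7-mer and 0.0085 for the 10493 without. Longer 3′ UTRs hold a given 7-mer more often, and the part of the seed in these changes was not tested. The first site of each member past the threshold is shown with 10 bases on each side and the 7-mer in capitals, in CANX at base 89 of the 3′ UTR (chr5:179155724-179155750), DNAJB9 at base 164 (chr7:108213951-108213977), ERO1LB at base 63 (chr1:236381737-236381763), PPP1R15B at base 161 (chr1:204375043-204375069), PDIA6 at base 773 (chr2:10923595-10923621), and EDEM3 at base 2353 (chr1:184660828-184660854).
CANX: ccttaggttgACATTCAgaaaacttca
DNAJB9: gacaaattcaACATTCAacgagtagac
ERO1LB: ttaattatggACATTCAtcagaaagac
PPP1R15B: ccactcagaaACATTCAggtttgaagc
PDIA6: tttatgtaaaACATTCAgaaaatgaag
EDEM3: ttacaactctACATTCAtttacttact

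CANX and PDIA6 hold 2 copies each. EDEM3, with 1 copy, rose. SEL1L, with 1 copy, was at 0.27, and DNAJC10 holds 2 copies, the first at base 16350 of a 17332-base 3′ UTR, whereas its counted transcript is 4146 bases long. The 7-mer that pairs with the siControl guide has 1 copy each in the 3′ UTRs of SEL1L, DNAJC10 and P4HB. Its part in the changes was not tested. EIF2AK3, WFS1, HERPUD1, XBP1 and SYVN1 fell past the threshold with 0 copies.

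**Figure D5:**
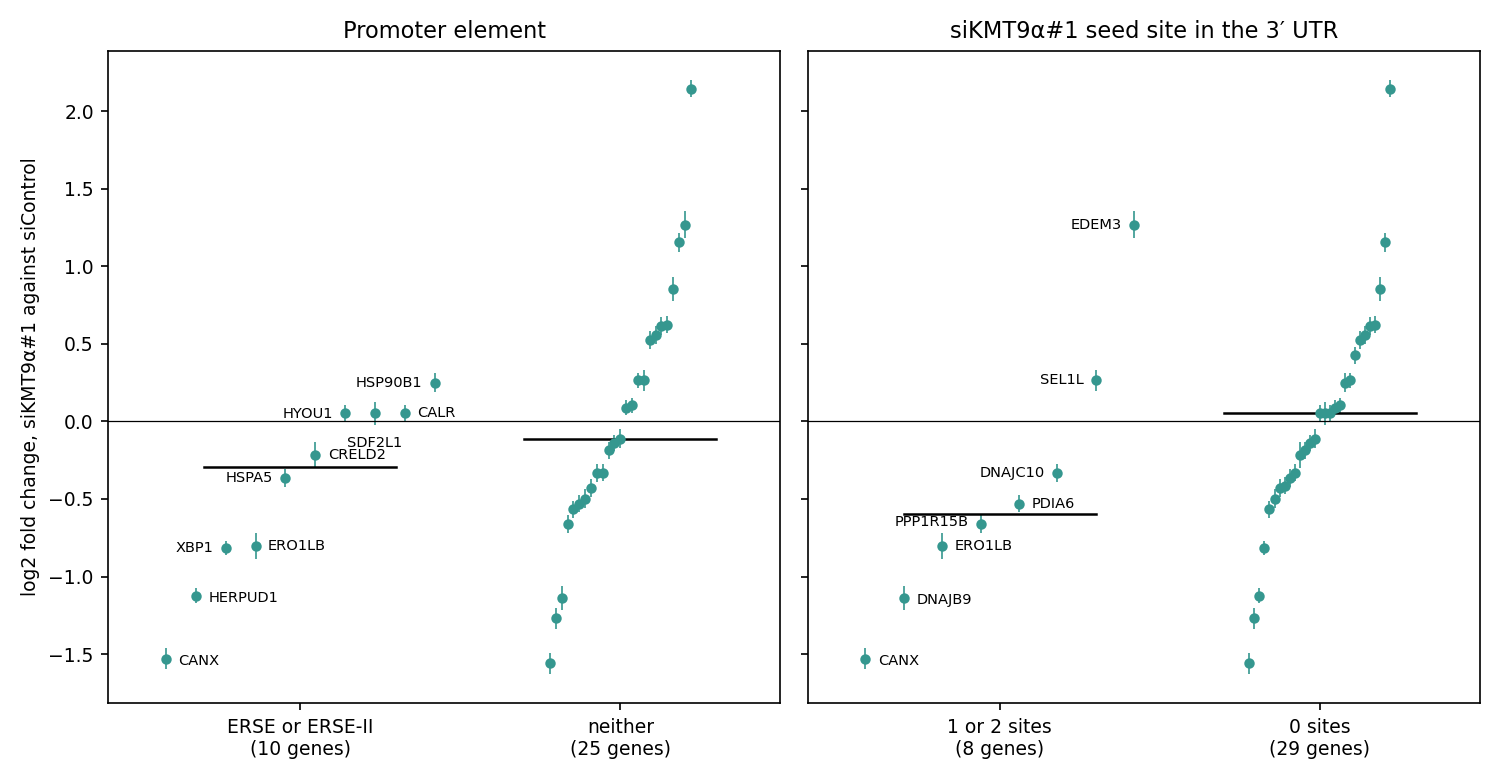
Log2 fold change (points) and standard error (bars) of the members with and without an ERSE or ERSE-II in the promoter (left, 35 genes) and with and without the siKMT9α#1 seed 7-mer in the 3′ UTR (right, 37 genes). Horizontal lines mark medians, which are -0.29 and -0.11 on the left and -0.60 and 0.052 on the right.

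Further genes around these processes were taken from lists of general knowledge, and their counts are to be read against 13.5% higher and 10.7% lower past the study's threshold, and 37.1% and 38.5% at the adjusted p, over all genes. Of 19 genes downstream of PERK and ATF4, 3 were higher and 9 were lower past the study's threshold, 5 and 13 at the adjusted p, with a median log2 fold change of -0.44. NUPR1, a stress-induced chromatin protein, had 96.4 ± 5.44 CPM in siControl and 15.0 ± 0.763 in siKMT9α#1 (SD, n = 3), a log2 fold change of -2.69 (standard error 0.067). CTH, an enzyme of cysteine synthesis, was at -1.43 (standard error 0.10). DDIT3, which encodes CHOP, the transcription factor linked to death under ER stress, had 136 ± 4.91 CPM in siControl and 80.4 ± 2.27 in siKMT9α#1 (SD, n = 3), a log2 fold change of -0.76 (standard error 0.049). TRIB3, a pseudokinase induced by ATF4 and CHOP, was at -0.75 (standard error 0.048), and ATF4 itself at -0.19 (standard error 0.053). The stress transcription factors ATF3 and ATF5 rose, by 1.27 and 1.14 on the log2 scale.

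Of 22 other genes of sensing and signal processing, 1 was higher and 6 were lower past the threshold, with a median of -0.15, where 13.5% and 10.7% of all genes were. NCK1, an adaptor protein that acts on PERK and IRE1α signalling, was at -1.26, EIF2AK2, the eIF2α kinase PKR, at -1.11, and MBTPS1, the Golgi protease that cleaves ATF6, at 0.72. Of 40 other folding enzymes tested, 6 were higher and 7 lower, with a median of 0.10, shares near the 13.5% and 10.7% of all genes. TXNDC5, a disulfide isomerase, had 107 ± 4.34 CPM in siControl and 544 ± 24.8 in siKMT9α#1 (SD, n = 3), a log2 fold change of 2.35 (standard error 0.053), and DNAJB14, a membrane J-domain protein, was at 1.73. GPX8, an ER peroxidase, was at -1.56 and HSPA13, an ER-associated Hsp70, at -1.36. ERO1A, the paralogue of ERO1LB, was at -0.22.

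Of 28 translocon and N-glycosylation genes, 5 were higher and 2 lower past the threshold, with a median of -0.098, beside 13.5% and 10.7% of all genes. SSR1 and TRAM1, which sit beside the Sec61 channel, were at 1.33 and 1.03, while SEC62, a translocon partner for small precursors, and SPCS3, a signal peptidase subunit, were at -0.92 and -0.98. Of 31 other ERAD genes tested, 5 were higher and 4 lower, with a median of 0.0056, shares near those of all genes. FAF2 (UBXD8), which recruits the p97 ATPase, was at 1.56 and the deubiquitinase YOD1 at 1.06, and the ligase RNF5 and the membrane scaffold ERLIN2 were at -1.29 and -1.17.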

How the data were processed

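RNA-Seq of 6 A549 samples was used, grouped by the siRNA in the sample labels. STAR was used by the authors for alignment to hg19 and HOMER for counting on RefSeq transcripts. What they deposited are estimated counts, 1 per transcript and sample, unnormalized and in steps of 0.5. HOMER's options and use of strand are not given in the sources used here. The deposited columns that hold the authors' own fold change, p-value and adjusted p-value were not used. Each gene was represented by the transcript with the largest summed count. The estimated counts were rounded and fitted over the whole table with edgeR 4.0.16 in R 4.3.3 (TMM, filterByExpr, quasi-likelihood F test, two-sided), which tested 13877 genes, with Benjamini-Hochberg adjustment over all of them. The standard error is the absolute log2 fold change divided by the square root of F. CPM were scaled by TMM factors of 0.96 to 1.04 and divided by the deposited transcript length where given per kilobase. Simulated counts were used to test the fitting script. Samples had 13740097 to 19832395.5 counts. Counting error is not small against the spread between replicates for the lowest members, such as DERL3, ERO1LB (from 170.5 counts in a sample) and CRELD2 (from 218).

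The members and the gene lists were chosen with earlier results of these data known. All 38 members and N6AMT1 are named, and of each further list the 2 largest changes in each direction past the study's threshold, with DDIT3, ATF4, TRIB3 and ERO1A whatever their change. Outside that rule, SEC61G and SEC61A2 are named as further subunits of the Sec61 channel, and neither passed the study's threshold. The alternatives were RLE factors, library size alone, an unfiltered table, a minimum of 10 counts in each sample, DESeq2 1.42.0, edgeR's likelihood-ratio test, the replicate number as a block, summed or other transcripts, offsets for GC content and length, and each sample left out. ERSE-II and the pairs for ratios were added after the data were seen. Protein sequences were not analysed here.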

Additional observations from a re-analysis of the deposited data

How the results depend on the processing

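The counts past the study's threshold, 6 members higher and 10 lower, moved most. The count higher was 3 with library size alone, 10 with DESeq2, 3 with the replicate block and 3 with counts summed over transcripts, and the count lower was 16 with no filter, 6 with the replicate block and 6 with summed transcripts. Leaving out 1 sample gave 3 to 9 higher and 6 to 10 lower. Of all genes, 3357 of 13877 passed, 3378 of 13877 with library size alone and 4621 of 18751 with DESeq2. The replicate block passed 2342 of 13877 and summed transcripts 2164 of 14164. No filter passed 6070 of 18751 and the likelihood-ratio test 5962 of 13877. With 1 sample left out, 2326 to 4085 genes passed. With GC and length offsets 23 members passed, 9 higher and 14 lower, with ATF6, DERL1, DERL2, EDEM1, HSPA5, PDIA3 and PPP1R15A added to the 16. The count over all genes also rose with these offsets, to 4358 of 12921 from 3357 of 13877. At the adjusted p, 12 to 15 members were higher and 16 to 20 lower over all these fits. Of all genes, 9632 (DESeq2) to 11148 (no filter) were called, both of 18751, against 10492 of 13877 in the main fit. Without TMM the median of all genes shifted from -0.014 to -0.12, and 5 uncalled members turned with it, HYOU1 to -0.054, SDF2L1 to -0.052, CALR to -0.052, P4HB to -0.0017 and OS9 to -0.017. With GC and length offsets HYOU1 was -0.037 and MANF 0.050, and SDF2L1 was -0.025 without siControl replicate 1 (range -0.025 to 0.12 over the samples left out). MANF was the only called member whose direction turned. The other transcripts of a symbol kept direction and call. Except in SEL1L (7.62%), those tested held 94.6% or more of the counts of the one used, so they could hardly differ. The cause of these moves was not tested.

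Same-numbered samples of both groups did not deviate alike from their group means over all genes (correlations of -0.079, 0.022 and -0.080). A correlation over all genes cannot exclude a pairing that acts weakly or on few genes. The replicate block moved the calls past the study's threshold from 16 to 9 members, and from 3357 to 2342 over all genes. It changed no member's side of the adjusted p.

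Depth limits DERL3, with 2.5 to 5.5 counts per sample, and 3 replicates of a single line with a single siRNA limit the rest.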
